A study of Mus musculus with 2 samples.

Results

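The genes of cytochrome P450 families 1 to 3 were followed in liver RNA of mice depleted of n-3 polyunsaturated fatty acids. Members were the genes whose symbol begins with Cyp, then 1, 2 or 3, then a letter, and that had a probe set annotated to them alone. This gave 43 of 18193 genes, measured by 52 probe sets, with several probe sets for 7 of the genes. Each gene was read from its probe set of highest mean log2 signal. RefSeq lists 60 protein-coding genes of this pattern. Of these, 42 were members, 4 shared their probe sets with a close relative and are given apart, and 14 are not analysed here. The remaining member, Cyp2d13, is a transcribed pseudogene in RefSeq.

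Cytochromes P450 of these families are haem enzymes of the endoplasmic reticulum that insert oxygen into drugs, steroids, bile acids and fatty acids. They take electrons from P450 reductase and cytochrome b5, and their genes lie in tandem clusters of close relatives. In mouse liver many are induced by the receptors AHR, CAR and PXR, and several enzymes of the Cyp2c and Cyp2j subfamilies turn arachidonic acid and n-3 fatty acids into epoxides. Growth hormone secretion sets which of them are higher in male or in female liver.

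The DEF/FOS group was kept on a sunflower oil diet depleted in n-3 fatty acids for 112 days and drank fructooligosaccharides, a fermentable fibre, at 0.25 g per day over the last 10 days. The DEF/CT group received the same depleted diet and spent the last 10 days on the control diet with soybean oil. Both groups were male C57Bl/6J mice, 9 weeks old at the outset, with 8 mice per group in the treatment protocol. The depleted diet had an n-6 to n-3 ratio of 127.2, against 6.9 for the control diet. RNA of the mice of a group was pooled and put on 1 array, so no difference given here has a replicate check or a test. The groups differed in both fibre and oil, whose parts cannot be told apart.

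The values are MAS5 signals on a linear scale, whose median over probe sets was 19.6 in DEF/FOS liver and 21.9 in DEF/CT liver. Differences are log2 DEF/FOS minus log2 DEF/CT, centred on the median probe set. Genes were compared above a floor, a mean signal of 19.4, which is the median of the probe sets that are not controls and no detection call. Where a gene had several probe sets, the SD of their log2 differences gave a technical spread, 0.38 over 4885 genes and 0.27 over 1128 genes with a mean signal of at least 500. It does not hold the variation among animals or arrays. Of 8 hepatocyte markers measured, all lay above the floor in both pools and their median difference was -0.02. The 12 skeletal muscle markers summed to a signal of 163.6 in DEF/FOS liver and 2839 in DEF/CT liver, all 12 lower in DEF/FOS liver, and their part in the P450 differences was not tested. With the centre set on the hepatocyte markers, the median difference of the P450 genes was -0.17, against -0.20 on the main scale.

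Of the 43 genes, 30 lay above the floor, and 21 of these 30 were lower in DEF/FOS liver, where 50.0% of all 11163 genes above the floor were lower. The remaining 9 were higher, as were 49.9% of all genes. The median difference of the 30 was -0.20 on the log2 scale, against 0.00 over all genes. At least 1.5-fold lower were 5 members, Cyp2c54, Cyp2j6, Cyp2d13, Cyp2u1 and Cyp2d9, where 7.82% of all genes were. At least 1.5-fold higher were 2 members, Cyp2c38 and Cyp2c55, where 6.75% of all genes were. At 2-fold, 1 member was higher, Cyp2c38, beside 1.74% of all genes, and 1 was lower, Cyp2c54, beside 2.19%. Among the 24 members with a mean signal over 84.3, the 75th percentile, 18 were lower, where 50.2% of all genes at that signal were, and the count at least 1.5-fold lower was also 5, where 3.14% of all genes were. In pooled tissue RNA, fewer cells of a type and less RNA per cell cannot be told apart.

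**Figure D1:**
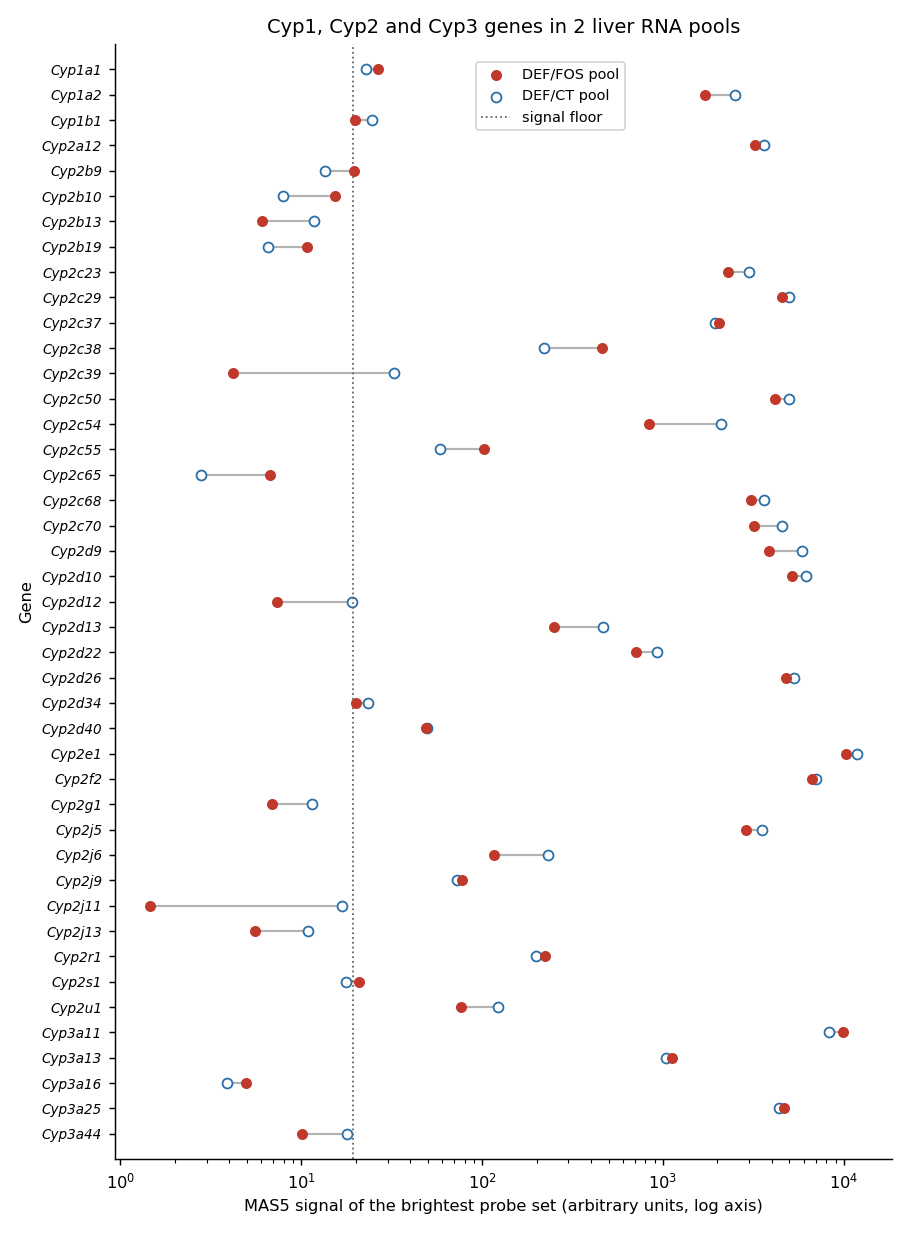
MAS5 signal of each Cyp1, Cyp2 and Cyp3 gene by its brightest probe set (log axis), filled points for the DEF/FOS pool and open points for the DEF/CT pool, with the signal floor dotted. The widest gaps above the floor are those of Cyp2c54, 837 in DEF/FOS liver against 2094 in DEF/CT liver, and of Cyp2c38, 459 in DEF/FOS liver against 220 in DEF/CT liver.

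**Figure D2:**
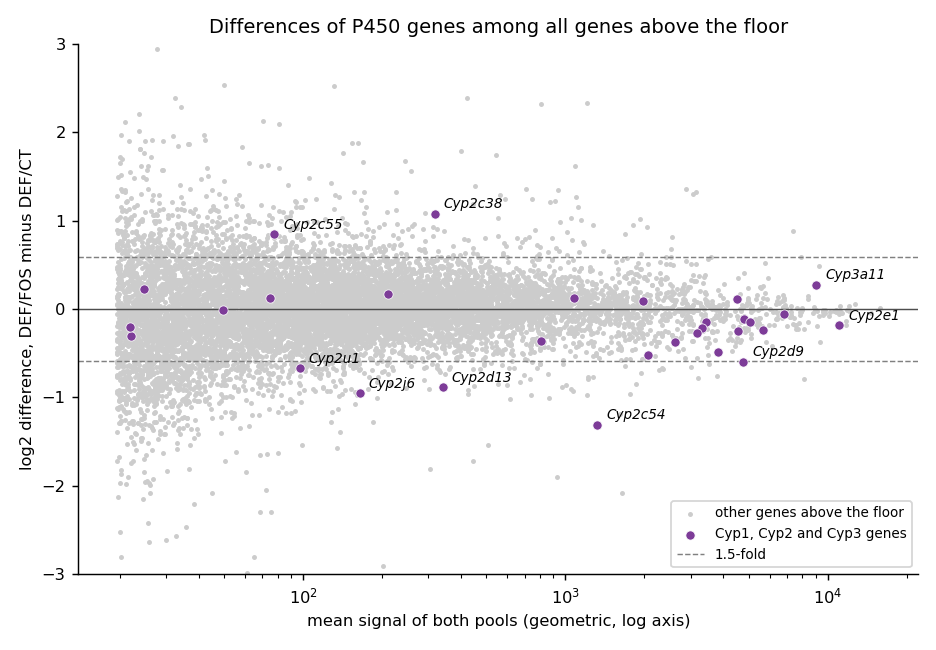
Log2 difference, DEF/FOS minus DEF/CT, against the mean signal of both pools (log axis) for all genes above the floor (grey; 13 lie outside the plotted range) and the 30 P450 genes (purple), with the 1.5-fold lines dashed. The named genes are the 7 past 1.5-fold, with Cyp3a11 and Cyp2e1 added for orientation.

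The Cyp2c subfamily held both the largest positive and the largest negative difference among members above the floor. Cyp2c54, an arachidonic acid epoxygenase, had a signal of 837 in DEF/FOS liver and 2094 in DEF/CT liver, and was 2.47-fold lower. Cyp2c38, another arachidonic acid epoxygenase, had a signal of 459 in DEF/FOS liver and 220 in DEF/CT liver, and was 2.11-fold higher. Cyp2c55, which hydroxylates arachidonic acid and is inducible through CAR and PXR, had a signal of 103 in DEF/FOS liver and 58.2 in DEF/CT liver, 1.80-fold higher. These 3 differences exceeded the SD between probe sets of a gene, and each of the 3 genes had 1 probe set. Cyp2c55 is also known from the intestine, and 4 of 6 measured enterocyte markers, Vil1, Lct, Cdx2 and Cdh17, lay below the floor in both pools. The other enterocyte markers were Fabp2, also expressed by hepatocytes, at 2265 in DEF/FOS liver and 1779 in DEF/CT liver, and Alpi, at 27.0 in DEF/FOS liver and 19.4 in DEF/CT liver. Their summed signal over all 6 was 2319 in DEF/FOS liver and 1812 in DEF/CT liver, and their part in the Cyp2c55 difference was not tested.

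The other 6 Cyp2c genes above the floor differed by less than 1.5-fold. Cyp2c70, which makes the muricholic acids of mouse bile, had a signal of 3202 in DEF/FOS liver and 4523 in DEF/CT liver, a log2 difference of -0.48. Cyp2c23, an epoxygenase also called Cyp2c44, had 2282 in DEF/FOS liver and 2986 in DEF/CT liver, a difference of -0.37. The epoxygenases Cyp2c50 and Cyp2c29 were closer to no difference. Cyp2c50 had 4156 in DEF/FOS liver and 4999 in DEF/CT liver, and Cyp2c29 had 4578 in DEF/FOS liver and 4984 in DEF/CT liver. Cyp2c68 had 3066 in DEF/FOS liver and 3601 in DEF/CT liver, whereas Cyp2c37 had 2035 in DEF/FOS liver and 1935 in DEF/CT liver and was 1 of the 3 Cyp2c genes with a positive difference. Cyp2c39, which oxidises retinoic acid, had a mean signal below the floor, but its DEF/CT signal of 32.7 lay above it while its DEF/FOS signal was 4.19. Set against the floor, the DEF/FOS value was lower by at least 1.67-fold, a bound chosen after its values were seen. Cyp2c65 lay below the floor in both pools.

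Neighbours in the Cyp2c cluster of chromosome 19 did not share a direction. In RefSeq order the differences above the floor were 0.84 for Cyp2c55, -0.11 for Cyp2c29, 1.08 for Cyp2c38, -0.22 for Cyp2c68, 0.09 for Cyp2c37, -1.31 for Cyp2c54, -0.25 for Cyp2c50 and -0.48 for Cyp2c70. Cyp2c54 lies between Cyp2c37 and Cyp2c50, whose differences were 0.09 and -0.25. Cyp2c38 lies within the annotated span of Cyp2c39, of which the brighter pool was the DEF/CT one. The files hold no probe sequences, so how far each probe set reads a close relative was not tested.

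Promoters of the Cyp2c neighbours Cyp2c38 and Cyp2c39 are shown because the DEF/FOS pool was the brighter for Cyp2c38 and the DEF/CT pool for Cyp2c39. The mean signal of Cyp2c39 lay below the floor, so its direction rests on 1 probe set and a DEF/CT signal of 32.7. RefSeq promoter entries were matched for 35 of 43 members, and the 250 bases before the annotated start were searched. Cyp2c23, Cyp2c54, Cyp2d12, Cyp2d13, Cyp2d22, Cyp2d34, Cyp2g1 and Cyp2u1 had no entry in the table used. Capitals mark matches to the letters TATAAA (sense strand), and on both strands AGGTCA and AGTTCA (half-sites of nuclear receptors), AAAGTCC (core of the HNF4 site), GCGTG (core of the AHR site) and TTATGNAA (D-box of Dbp and its relatives).
Cyp2c38, GRCm38.p6, chr19:39463076-39463325, minus strand: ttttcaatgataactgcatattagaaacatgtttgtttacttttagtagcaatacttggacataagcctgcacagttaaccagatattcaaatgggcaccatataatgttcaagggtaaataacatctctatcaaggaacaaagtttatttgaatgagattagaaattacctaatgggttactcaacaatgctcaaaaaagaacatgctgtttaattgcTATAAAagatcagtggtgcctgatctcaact
Cyp2c39, GRCm38.p6, chr19:39347096-39347345, plus strand: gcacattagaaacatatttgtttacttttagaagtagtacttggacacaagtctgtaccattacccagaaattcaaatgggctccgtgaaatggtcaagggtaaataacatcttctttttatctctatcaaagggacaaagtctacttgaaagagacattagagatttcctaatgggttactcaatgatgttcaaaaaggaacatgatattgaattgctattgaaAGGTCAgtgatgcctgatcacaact
Cyp2c39 has 2 annotated starts, and the window printed is that of the first along the chromosome. The window of Cyp2c38 was identical to it at 201 of 235 aligned bases, 85.5%, and to that of the other Cyp2c39 start, chr19:39510572-39510821 on the plus strand, at 198 of 221, 89.6%. The Cyp2c38 window held TATAAA from position -31, counted back from the start. The printed Cyp2c39 window held AGGTCA from position -25, whereas the other held no AGGTCA and had AGTTCA from position -225. The Cyp2c29 window, not printed, was identical to that of Cyp2c38 at 82.0% of 228 aligned bases. TATAAA was found in 11 of 38 member entries, 28.9%, and in 7.6% of all 32851 entries. AAAGTCC was found in 7 of 38, 18.4%, and in 3.6% of all, and GCGTG in 18.4% of member entries and 28.2% of all. AGGTCA was found in 31.6% of member entries and 14.0% of all, and AGTTCA in 7.9% of member entries and 11.8% of all. Such matches describe the letters of these windows and were not tested against the differences.

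The largest difference among the Cyp2j genes above the floor was that of Cyp2j6. Its brightest probe set had a signal of 117 in DEF/FOS liver and 230 in DEF/CT liver, 1.94-fold lower. Its other probe set had 117 in DEF/FOS liver and 195 in DEF/CT liver, 1.65-fold lower. Cyp2j5, expressed in mouse liver and kidney, had 2890 in DEF/FOS liver and 3510 in DEF/CT liver, with differences of -0.27 and -0.32 in its 2 probe sets. Cyp2j9 had 77.9 in DEF/FOS liver and 72.2 in DEF/CT liver. Cyp2j11 and Cyp2j13 lay below the floor in both pools. Over the list of Cyp2c and Cyp2j genes, 12 of 16 measured members lay above the floor, with a median of -0.23. Of these 12, 8 were lower and 4 higher in DEF/FOS liver. All 30 members above the floor had a median of -0.20, with 21 lower. Over all genes above the floor the median was 0.00, with 50.0% lower. Ephx2, the soluble epoxide hydrolase that opens fatty acid epoxides, had 4216 in DEF/FOS liver and 4015 in DEF/CT liver.

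All 7 Cyp2d genes above the floor had negative differences, from -0.89 to -0.01, although that of Cyp2d40 ran from -0.03 to 0.01 over the processing alternatives. Over all genes above the floor, 50.0% had negative differences. Cyp2d9, the testosterone 16-alpha-hydroxylase of male mouse liver, had a signal of 3848 in DEF/FOS liver and 5876 in DEF/CT liver, 1.51-fold lower. The pseudogene Cyp2d13 had 249 in DEF/FOS liver and 465 in DEF/CT liver by its brightest probe set, 1.85-fold lower, and 209 in DEF/FOS liver and 308 in DEF/CT liver by the other, 1.46-fold lower. Cyp2d22 differed by -0.36 and -0.45 in its 2 probe sets, with 710 in DEF/FOS liver and 921 in DEF/CT liver by the brighter. Cyp2d10 had 5201 in DEF/FOS liver and 6206 in DEF/CT liver, and Cyp2d26 had 4763 in DEF/FOS liver and 5321 in DEF/CT liver. Cyp2d34 had 20.2 in DEF/FOS liver and 23.5 in DEF/CT liver, just above the floor, and Cyp2d40 had 48.9 in DEF/FOS liver and 49.8 in DEF/CT liver. Cyp2d12 lay below the floor in both pools. The Cyp2d genes are neighbours on chromosome 15, and the upstream windows of Cyp2d9 and Cyp2d10 were identical at 86.5% of 244 aligned bases.

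**Figure D3:**
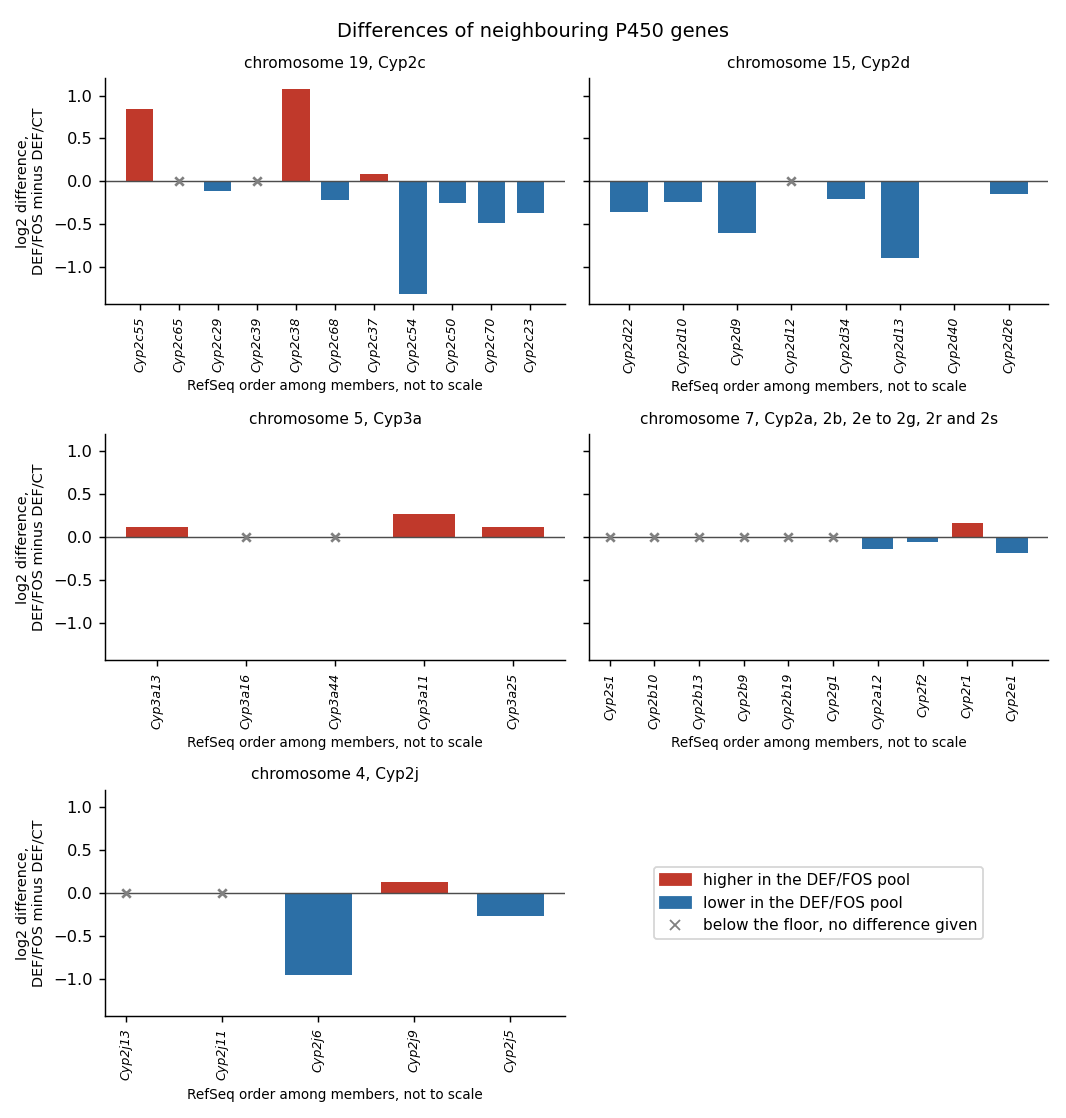
Log2 difference, DEF/FOS minus DEF/CT, of members in RefSeq order on 5 chromosomes (bars, not to scale along the chromosome), with crosses for genes below the floor. Bars of both directions stand side by side on chromosome 19, while the Cyp2d bars on chromosome 15 point down and the Cyp3a bars on chromosome 5 point up.

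The 3 Cyp3a genes above the floor all had small positive differences, where 49.9% of all genes above the floor had positive ones. Cyp3a11, the most studied PXR target of mouse liver and an enzyme of bile acid and drug oxidation, had a signal of 9896 in DEF/FOS liver and 8265 in DEF/CT liver, 1.21-fold higher. Cyp3a25 had 4688 in DEF/FOS liver and 4369 in DEF/CT liver, and Cyp3a13 had 1124 in DEF/FOS liver and 1043 in DEF/CT liver. Both differed by 0.12 on the log2 scale, which is below the SD between probe sets of a gene, and the 0.27 of Cyp3a11 did not exceed it. Cyp3a16 and Cyp3a44, which are higher in female than in male liver, lay below the floor in both pools. The probe set shared by Cyp3a41a and Cyp3a41b, of the same female-biased group, had 30.1 in DEF/FOS liver and 26.7 in DEF/CT liver. The Cyp3a11 promoter is shown because this gene is the standard readout of the receptor PXR.
Cyp3a11, GRCm38.p6, chr5:145879855-145880104, minus strand: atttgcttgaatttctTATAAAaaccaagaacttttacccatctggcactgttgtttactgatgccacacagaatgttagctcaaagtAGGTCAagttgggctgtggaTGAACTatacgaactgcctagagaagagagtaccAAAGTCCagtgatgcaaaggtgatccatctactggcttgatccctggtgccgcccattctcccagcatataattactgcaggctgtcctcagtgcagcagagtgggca
It held AGGTCA from position -162, AGTTCA on the opposite strand from position -142, AAAGTCC from position -108 and TATAAA from position -234.

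On chromosome 7, the Cyp2b genes were at the limit of measurement. Cyp2b9, Cyp2b10, Cyp2b13 and Cyp2b19 had mean signals below the floor, so no fold is given. Cyp2b10, the classical CAR target, had 15.3, 14.9 and 5.48 in DEF/FOS liver and 7.92, 1.44 and 5.81 in DEF/CT liver over its 3 probe sets. Every one of these 6 signals lay below the floor. Cyp2b9, known to be higher in female liver, had 19.5 in DEF/FOS liver, at the floor, and 13.5 in DEF/CT liver, and Cyp2b13, with the same known bias, had 6.10 in DEF/FOS liver and 11.8 in DEF/CT liver. Of 9 female-biased P450 genes listed, 4 had a probe set of their own and 0 of these 4 lay above the floor. Over all genes, 11163 of 18193 lay above it. Also listed were Cyp2a4, Cyp3a41a and Cyp3a41b, whose shared probe sets lay above the floor and are given apart.

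The probe set shared by Cyp2a5, the coumarin 7-hydroxylase, and Cyp2a4, the testosterone 15-alpha-hydroxylase, had a signal of 2172 in DEF/FOS liver and 1380 in DEF/CT liver, 1.59-fold higher. It cannot be said which of the 2 genes differed, and it is not counted among the 30 members. Their relative Cyp2a12 had 3243 in DEF/FOS liver and 3615 in DEF/CT liver, a difference of -0.14. The promoters of the shared pair are printed to show how alike these genes are.
Cyp2a5, GRCm38.p6, chr7:26835089-26835338, plus strand: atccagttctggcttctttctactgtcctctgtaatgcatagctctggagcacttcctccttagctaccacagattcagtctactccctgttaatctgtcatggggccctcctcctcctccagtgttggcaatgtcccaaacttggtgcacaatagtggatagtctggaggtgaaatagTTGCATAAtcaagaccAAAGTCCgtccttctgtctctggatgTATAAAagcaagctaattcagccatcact
Cyp2a4, GRCm38.p6, chr7:26306942-26307191, plus strand: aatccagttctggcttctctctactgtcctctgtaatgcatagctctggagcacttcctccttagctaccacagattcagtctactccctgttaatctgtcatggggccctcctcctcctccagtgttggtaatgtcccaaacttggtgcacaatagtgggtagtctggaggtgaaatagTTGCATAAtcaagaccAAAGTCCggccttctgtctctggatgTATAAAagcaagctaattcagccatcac
The pair was identical at 245 of 249 aligned bases, 98.4%. Both windows held a D-box on the opposite strand, from position -71 in Cyp2a5 and -70 in Cyp2a4, followed by AAAGTCC and TATAAA. A D-box was found in 3.1% of all promoter entries and in 5.3% of those of the members. Dbp, the circadian factor known to bind such a site in this pair, had 118 in DEF/FOS liver and 288 in DEF/CT liver, 2.42-fold lower, with -1.28 and -1.31 in its 2 probe sets. The hour of tissue collection is not given in the sources used here.

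The remaining single-gene subfamilies differed little, except Cyp2u1. Cyp2e1, which oxidises ethanol, acetone and fatty acids, had a signal of 10323 in DEF/FOS liver and 11841 in DEF/CT liver, a difference of -0.18. Cyp2f2, known for activating naphthalene, had 6659 in DEF/FOS liver and 6998 in DEF/CT liver. Cyp2r1, the vitamin D 25-hydroxylase, had 222 in DEF/FOS liver and 199 in DEF/CT liver. Cyp2u1, a fatty acid hydroxylase, had 76.7 in DEF/FOS liver and 123 in DEF/CT liver by its brighter probe set, 1.59-fold lower. Its other probe set, at 37.5 in DEF/FOS liver and 38.5 in DEF/CT liver, differed by -0.02, so the probe sets of Cyp2u1 did not give the same size. Cyp2s1, just outside the floor with a mean signal of 19.1, had 20.8 in DEF/FOS liver and 17.6 in DEF/CT liver. Just inside it were Cyp2d34 and Cyp1b1, with mean signals of 21.8 and 22.0. Cyp2g1, known from the olfactory mucosa, lay below the floor in both pools.

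Family 1 holds the targets of AHR, the aryl hydrocarbon receptor. Cyp1a2, which oxidises caffeine and aromatic amines in hepatocytes, had a signal of 1718 in DEF/FOS liver and 2491 in DEF/CT liver, 1.44-fold lower. Cyp1a1, the most inducible AHR target, had 26.6 in DEF/FOS liver and 22.9 in DEF/CT liver. Cyp1b1, mainly expressed outside the liver, had 19.8 in DEF/FOS liver and 24.6 in DEF/CT liver by its brightest probe set, and its other 2 probe sets lay below the floor. The receptor gene Ahr had 466 in DEF/FOS liver and 254 in DEF/CT liver by its brightest probe set, 1.85-fold higher, but its other probe set differed by -0.02. Of the AHR targets that are no P450, 3 of 5 measured lay above the floor and all 3 had positive differences, as did 49.9% of all genes. The others, Aldh3a1 and Ahrr, had mean signals below the floor and were dimmer in DEF/FOS liver. Aldh3a1 had 11.2 in DEF/FOS liver and 19.7 in DEF/CT liver, and Ahrr had 0.578 in DEF/FOS liver and 2.59 in DEF/CT liver. Ugdh, which makes the sugar donor of glucuronidation, was 2.22-fold higher, at 1659 in DEF/FOS liver and 753 in DEF/CT liver. Nqo1, a quinone reductase, differed by 0.41 and Tiparp, a feedback inhibitor of AHR, by 0.23.

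Larger differences were found among CAR and PXR targets that are no P450. Among the P450 genes on this list, 6 of 9 lay above the floor with a median of 0.12, and 1, Cyp2c55, was at least 1.5-fold higher. The 12 measured targets that are no P450 had a median of 0.78, against 0.00 over all genes above the floor. Of them, 7 passed 1.5-fold upward, beside 6.75% of all genes, and 0 downward, beside 7.82%. The gap between the medians of both lists was not tested, and the lists were chosen with earlier results of these data known. The drug exporter Abcb1a had 54.1 in DEF/FOS liver and 25.3 in DEF/CT liver, 2.16-fold higher, and the exporter Abcc3 was 1.60-fold higher. Gstm1, a glutathione transferase, had 10001 in DEF/FOS liver and 5459 in DEF/CT liver, 1.85-fold higher. Gadd45b, a stress gene, was brighter 3.06-fold in DEF/FOS liver, with differences from 0.33 to 4.44 over 3. Gstm3, at 5.02-fold, and Ephx1, at 2.57-fold, were also higher, and these, Gstm1 and Abcc3 are known targets of NRF2 too. The other 5 differed less by their brightest probe sets, among them Aldh1a1 by 0.35, Slco1a4 by 0.20 and Ces2a by -0.11. Papss2, 1 of these 5, differed by 0.05 to 1.40 over 3 probe sets. The receptor genes themselves, named outside the naming rule, differed by less than 1.5-fold by their brightest probe sets. Nr1i3, encoding CAR, had 393 in DEF/FOS liver and 317 in DEF/CT liver, a difference of 0.32. Nr1i2, encoding PXR, had 95.7 in DEF/FOS liver and 113 in DEF/CT liver, with probe sets that disagreed in sign.

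**Figure D4:**
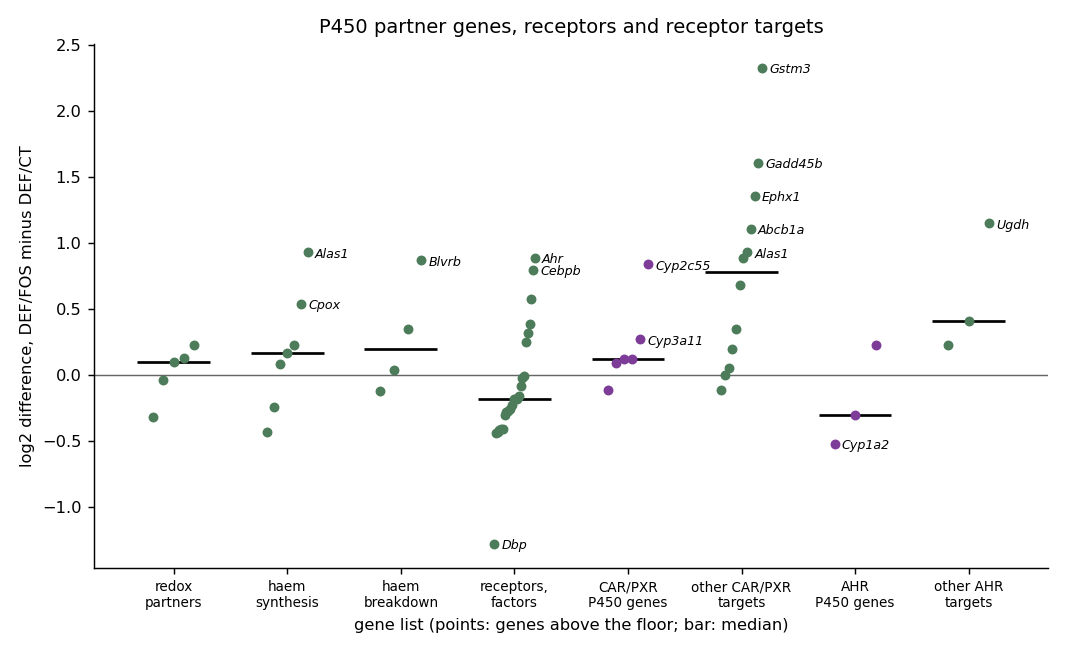
Log2 difference, DEF/FOS minus DEF/CT, of genes above the floor in 8 lists of P450 partners, regulators and receptor targets (points; P450 genes in purple), with the median of each list as a bar. The CAR and PXR targets that are no P450 have a median of 0.78 and the P450 genes of the same receptors one of 0.12. The lists were chosen with earlier results of these data known.

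Haem synthesis was led by Alas1, its rate-limiting enzyme in liver and itself a CAR and PXR target. Alas1 had a signal of 2812 in DEF/FOS liver and 1495 in DEF/CT liver, 1.90-fold higher, with differences of 0.70 and 0.93 in its 2 probe sets. Cpox, a later step, was 1.46-fold higher at 571 in DEF/FOS liver and 396 in DEF/CT liver, and Uros differed by -0.43. The 7 measured genes had a median of 0.17, against 0.00 over all genes above the floor. Alas1 alone of them passed 1.5-fold upward, beside 6.75% of all genes, and 0 passed it downward, beside 7.82%. In haem breakdown, Blvrb, a biliverdin reductase, had 1360 in DEF/FOS liver and 753 in DEF/CT liver, 1.82-fold higher, while the haem oxygenase Hmox1 differed by 0.35. The redox partners showed 0 of 5 genes past 1.5-fold in either direction, beside 6.75% of all genes upward and 7.82% downward. Cytochrome b5, Cyb5a, had 6375 in DEF/FOS liver and 6637 in DEF/CT liver, and its reductase Cyb5r3 differed by -0.32. The P450 reductase gene Por is not analysed here.

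The 24 receptors and transcription factors above the floor had a median of -0.18. Of them, 2 passed 1.5-fold upward, beside 6.75% of all genes, and 1 downward, beside 7.82%. Cebpb, a factor of the acute phase response, had 919 in DEF/FOS liver and 534 in DEF/CT liver, 1.74-fold higher, with 0.80 and 0.87 in its 2 probe sets. The others past 1.5-fold were Dbp and Ahr, whose other probe set differed by -0.02. By their brightest probe sets, Nfe2l2, encoding NRF2, differed by 0.58, Dbp's relative Tef by -0.44, the growth hormone mediator Stat5b by -0.43 and Ppara by -0.42. Over all their probe sets above the floor, Nfe2l2 ran from 0.30 to 0.58 and Tef from -0.44 to -0.29. Stat5b ran from -0.43 to -0.07 and Ppara from -0.50 to -0.41.

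Other P450 families also held more negative than positive differences. Of 22 genes above the floor, 15 were lower in DEF/FOS liver, with a median of -0.11, against 21 of 30 and -0.20 for families 1 to 3. Over all genes above the floor, 50.0% were lower. At least 1.5-fold higher were 4 of these 22, beside 6.75% of all genes, and lower 3, beside 7.82%. At 2-fold, 2 were higher, Cyp4a14 and Cyp4a31, and 0 lower, beside 1.74% and 2.19% of all genes. Without the Cyp4 genes, 10 of 12 were lower, with a median of -0.13. The difference between the sets of families was not tested.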

How the data were processed

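Liver RNA pools of the DEF/FOS and DEF/CT groups were measured on 1 Affymetrix array each. The authors deposited linear MAS5 signal intensities; GCOS and MAS5 are named without version in the submitters' processing notes. The 2% trimmed mean of the deposited intensities was 100.00 in both arrays, so the authors had scaled them to a common mean. The table held 45101 probe sets, 64 of them array controls; 34945 had 1 gene symbol, 932 several and 9160 none in the platform annotation, which can be old. All 43 member identifiers matched RefSeq (GRCm38.p6).

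Signals were turned to log2 without offset and centred on the median difference above the floor, -0.01 before centring (Python 3.11.15, numpy 2.4.6, pandas 2.3.3). With 1 array per group no test was run; the number of arrays limits the precision. The procedure was tested on simulated data. Promoters were aligned with Biopython 1.88, end gaps free. Every member above the floor was named; of other lists, genes past 1.5-fold and at most 4 of the largest remaining. Members and lists were chosen with earlier results of these data known. There were 10 alternatives, 8 planned and 2 added after seeing the data.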

Additional observations from a re-analysis of the deposited data

How the results depend on the processing

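The median difference of the members stayed negative in all 10 alternatives, from -0.25 to -0.13, and of the values of single members 286 kept their side of 1.5-fold, 4 fell short of 1.5-fold and 0 reversed a difference past 1.5-fold. Without a floor, genes of low signal enter, and 2-fold was passed upward by 2 of 43 members, beside 8.56% of all genes. Downward it was passed by 4, beside 13.4%. At 1.5-fold, 5 of the 43 were higher, beside 14.4% of all genes, and 12 lower, beside 20.8%. With the floor at the 75th percentile, 1 of 24 members was at least 1.5-fold higher, beside 3.61% of all genes, since Cyp2c55 lies below that floor. With an offset of 32, which shrinks differences, 0 of 30 members were at least 2-fold higher, beside 0.493% of all genes. Leaving out the probe sets marked as reading several transcripts, 3 of 28 members were at least 1.5-fold lower, beside 9.37% of all genes. Cyp2d9 has no other probe set, and Cyp2d13 differed by -0.53. In this setting 17 of the 28 members were lower, where 48.9% of all genes were. Cyp2u1 differed by -0.50 with the offset and by -0.35 with the median over probe sets, and Cyp2d9 by -0.57 when centred on hepatocyte markers. The count over all genes past 2-fold was 194 upward and 245 downward, against 1557 and 2446 without a floor, 59 and 28 above the 75th percentile, 55 and 40 with the offset, and 227 and 192 after quantile normalization. No paired analysis was possible because each group is 1 array, and for the same reason no array could be left out.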

Other observations

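Markers of the liver lobule's zones that are no P450 differed mostly by less than 1.5-fold. Of 10 markers of hepatocytes around the central vein, where Cyp2e1 and Cyp1a2 are known to be expressed, 7 were lower, with a median of -0.29. Of all genes above the floor, 50.0% were lower. The other 3, Tbx3, Glul and Rhbg, were higher. Gulo, the enzyme of vitamin C synthesis, had 1346 in DEF/FOS liver and 2124 in DEF/CT liver, 1.56-fold lower, and Tbx3 was 1.52-fold higher. Glul, glutamine synthetase of the cells next to the vein, had 3526 in DEF/FOS liver and 3289 in DEF/CT liver. Of 8 measured markers of hepatocytes around the portal tract, where Cyp2f2 is known to be expressed, 7 were lower, with a median of -0.26, and 0 passed 1.5-fold. Neither count was tested. The technical spread of 0.38 is that of single genes and does not measure the spread of such medians. Hal, histidine ammonia-lyase, had 995 in DEF/FOS liver and 1323 in DEF/CT liver, and Pck1 had 3819 in DEF/FOS liver and 4913 in DEF/CT liver.

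Markers of other cell types also differed. The median was 0.23 over 7 Kupffer cell markers, 1.06 over 4 neutrophil markers, -1.11 over 4 B cell markers and 0.51 over 3 cholangiocyte markers. Summed over all measured markers, Kupffer cell signal was 3347 in DEF/FOS liver and 2822 in DEF/CT liver, neutrophil signal 309.6 in DEF/FOS liver and 138.0 in DEF/CT liver, and B cell signal 355.0 in DEF/FOS liver and 1010 in DEF/CT liver. The neutrophil markers did not share a direction: S100a8 and S100a9 differed by 2.13 and 1.66, whereas Elane differed by -0.30 and Mpo, below the floor by its mean, had 2.83 in DEF/FOS liver and 21.8 in DEF/CT liver. Ighm made up most of the B cell sum, at 243 in DEF/FOS liver and 809 in DEF/CT liver, and its 5 probe sets above the floor ran from -1.72 to 0.23, disagreeing in sign. The cholangiocyte marker Krt19 had 26.1 in DEF/FOS liver and 17.2, below the floor, in DEF/CT liver. The cholangiocyte markers Krt7 and Cldn7 had mean signals below the floor. Krt7 had 20.0 in DEF/FOS liver and 12.3 in DEF/CT liver, and Cldn7 had 13.1 in DEF/FOS liver and 17.8 in DEF/CT liver. The part of these cell types in the P450 differences was not tested.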
